A study of Rattus norvegicus with 18 samples.

Results

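Messenger RNA levels at 50 µM of the inhibitor Senexin A were compared with those at 10 µM, in cultured rat heart muscle cells that were all kept under phenylephrine (PE). The comparison used the 6 libraries labelled PE with Senexin A, 3 at each dose, out of 18 libraries in the series. It covered all 10478 genes that passed a filter on low values, out of 17303 entries in the table. Each dose with PE had 3 replicates, and the same pair of doses without PE served as a comparison of 6 further libraries.

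The cells were ventricular cardiomyocytes of Wistar rats taken on postnatal day 3 and dissociated with a neonatal heart kit. All cultures, controls included, had 48 h of AraC, a nucleoside that kills dividing cells, and then 24 h without serum. Treatment lasted 48 h, with medium and drugs renewed after 24 h. The 10 µM group had 10 µM PE and 10 µM Senexin A, the 50 µM group had 10 µM PE and 50 µM Senexin A, and the groups without PE had the same inhibitor doses alone. Vehicle libraries and libraries with PE alone gave background levels. No transgene or knockout was part of the design, and the labels do not say whether cells of several animals were pooled or whether replicates were separate cultures. The p-values therefore reflect only how far these libraries spread, and part of that spread may be technical.

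CDK8 is a kinase of the Mediator complex, which carries signals from transcription factors to RNA polymerase II. With cyclin C, MED12 and MED13 it forms a module that binds Mediator reversibly and can raise or lower transcription according to the gene. PE stimulates alpha1-adrenergic receptors and makes cultured neonatal cardiomyocytes enlarge and turn on a fetal set of contractile and peptide hormone genes. Senexin A inhibits CDK8 and its paralog CDK19. The dose comparison shows which transcripts moved between the doses while the hypertrophic stimulus was held fixed.

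FPKM values (fragments scaled by transcript length and by mapped fragments) summed to 839441 to 910958 per library at 10 µM and 790067 to 897706 at 50 µM, against 610324 to 910958 over all 18 libraries. The 10 most abundant genes held 17.9 to 18.6% of that sum at 10 µM and 13.7 to 15.1% at 50 µM, and Myl2, the ventricular regulatory light chain, led in every library. Depth in reads is unknown, so no counting error is given. The cardiomyocyte label was checked on a list of markers: the 11 measured members summed to 85105 to 106130.0 FPKM at 10 µM and 57891 to 72987 FPKM at 50 µM. Fibroblast markers (13 measured, 12 tested) summed to 902 to 1806 and 646 to 1254 FPKM. Macrophage markers (13 measured, 8 tested) summed to 37.3 to 278 and 25.8 to 269 FPKM, and endothelial markers (13 measured, 6 tested) to 16.9 to 20.6 and 14.4 to 15.3 FPKM. These sums are over the members measured. In such bulk samples fewer cells of a type and less RNA per cell cannot be told apart.

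Between the doses, 4320 genes (41.2% of those tested) differed at an adjusted p under 0.05 by limma on log2(FPKM + 1). At 50 µM 2231 genes were higher (21.3%) and 2089 were lower (19.9%). The libraries of both doses did not overlap for 5168 genes (49.3%), and 4115 of these were among the genes called. The median change over all genes tested was -0.0058, and the median standard error (SE) was 0.118. Of the calls, 567 reached a log2 change of at least 1 in size: 368 were lower and 199 higher. From here on, rose and fell mean higher and lower at 50 µM than at 10 µM with PE at that threshold, changes are on the log2(FPKM + 1) scale with their SE, and listed values are FPKM of replicates 1, 2 and 3. So large a share of all genes changed that a list of genes has to be read against it. For every list below, the shares over all genes are 21.3% higher and 19.9% lower.

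**Figure D1:**
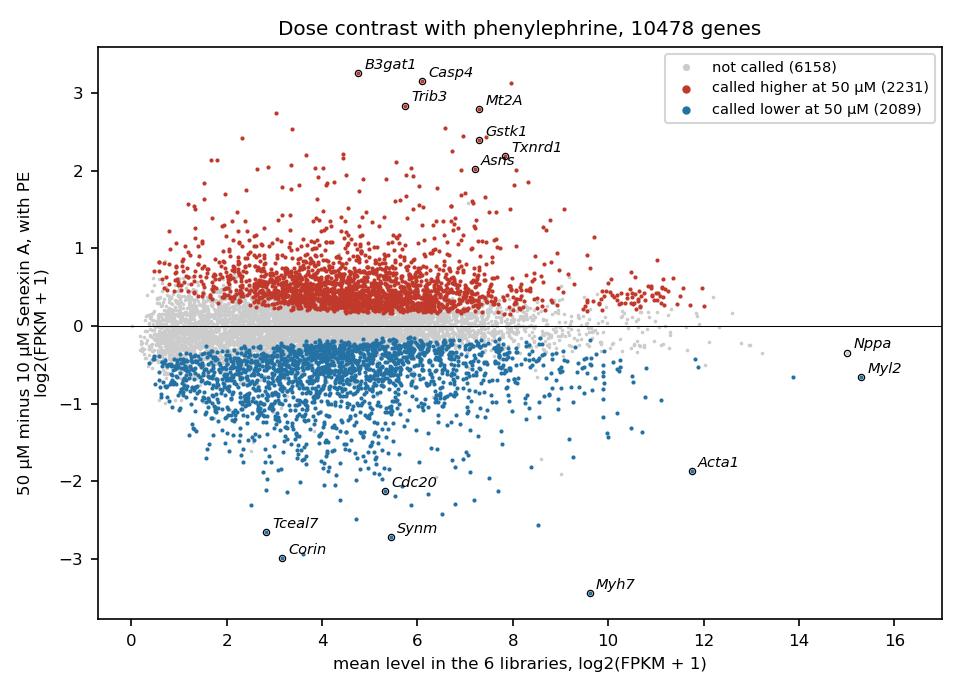
Change between the doses with PE (vertical axis, log2(FPKM + 1) at 50 µM minus 10 µM) against the mean level over the 6 libraries (horizontal axis, log2(FPKM + 1)), with 1 point per gene tested and genes called by limma in colour. Falls reached -3.44 (Myh7) and rises 3.26 (B3gat1) among the labelled genes, and most genes lie close to 0.

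Gene lists were compared by the number of members called and by their median. Lists of mitosis, DNA replication and contractile genes lay below the median of all genes, and lists of the integrated stress response, amino acid supply and aminoacyl-tRNA synthetases lay above it. Both cell cycle lists and the stress response list stood far above the 41.2% background. Lists of Mediator subunits, fibroblasts and macrophages held few calls or none.

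**Figure D2:**
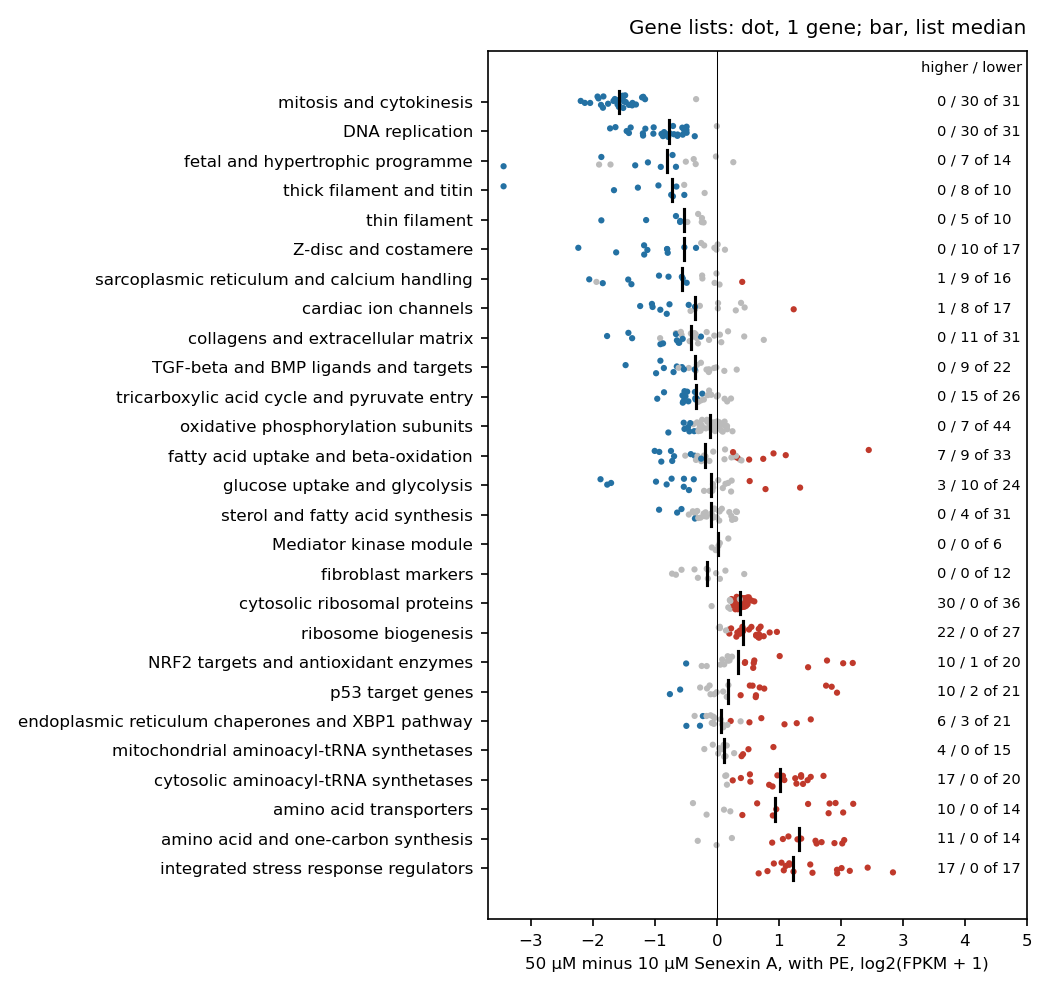
Change of every tested member of selected gene lists between the doses with PE (horizontal axis, log2(FPKM + 1) at 50 µM minus 10 µM), with 1 point per gene, coloured where limma called it, and a bar at the list's median. Medians run from -1.58 for mitosis genes to 1.33 for amino acid synthesis genes.

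The regulators of the integrated stress response rose at the higher dose in every tested member, 17 of 17, with a median change of 1.24. The summed level of the 18 members measured was 929.6 to 1284 FPKM at 10 µM and 2841 to 3092 FPKM at 50 µM. In this response, phosphorylation of the initiation factor eIF2 lowers general translation while the transcription factor ATF4 is made in larger amounts and turns on genes for amino acid supply and stress adaptation. Nupr1, also on the list, did not pass the filter on low values. That filter can let in a low gene through the group in which it is high, which favours rises in the count. Among the compared libraries, Fgf21 reached 1 FPKM only at 50 µM. With no filter, 17 of the 18 members measured rose and none fell, with a median change of 1.20.

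Atf4 itself (rn5, chr7:121468537-121470596) stood at 325, 229.7 and 284 FPKM at 10 µM and 746, 842 and 780.1 FPKM at 50 µM, a change of 1.51 ± 0.14 (limma adjusted p = 6.16e-07). All 3 libraries at 50 µM lay above all 3 at 10 µM. Ddit3, which encodes the stress transcription factor CHOP, stood at 69.8, 48.3 and 43.9 FPKM at 10 µM and 275, 340.1 and 263 FPKM at 50 µM (2.43 ± 0.17 (limma adjusted p = 8.85e-08)). The 50 µM libraries were again the higher ones throughout, but Ddit3 shares its locus with the methionyl-tRNA synthetase gene Mars in the table, so reads of the pair may have been mixed.

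Trib3, a pseudokinase known as a target of ATF4 (rn5, chr3:154162206-154167791), had the largest change of the list. It stood at 19.7, 6.39 and 13.0 FPKM at 10 µM and 82.1, 94.7 and 98.0 FPKM at 50 µM, 7.04-fold higher by the group means, with a change of 2.84 ± 0.41 (limma adjusted p = 5.14e-05). Replicate 2 was the lowest at 10 µM, and no 10 µM library came near the 50 µM level. Its Vehicle and PE levels were 15.3 ± 7.78 and 9.56 ± 5.05 FPKM (mean ± SD, n = 3), close to the 10 µM level of 13.0 ± 6.63 FPKM.

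Chac1, a glutathione-degrading enzyme downstream of ATF4, stood at 11.9, 5.22 and 9.11 FPKM at 10 µM and 35.0, 32.9 and 36.7 FPKM at 50 µM (1.94 ± 0.37 (limma adjusted p = 0.000516)). Sesn2, a stress-induced inhibitor of mTORC1 signalling, changed by 1.94 ± 0.19 (limma adjusted p = 1.34e-06). The secreted factors of the list rose as well. Gdf15, a stress cytokine, changed by 2.01 ± 0.21 (limma adjusted p = 2.42e-06). Fgf21, a metabolic hormone, stood at 0.353, 0.01 and 0.181 FPKM at 10 µM and 4.45, 3.80 and 4.34 FPKM at 50 µM (2.15 ± 0.19 (limma adjusted p = 4.45e-07)), with replicate 2 at the floor of the table at 10 µM, so it was a low gene at both doses. Further members were the transcription factors Atf5 (1.11), Cebpb (1.17) and Atf3 (1.08), the phosphatase subunit Ppp1r15a (1.54), which reverses eIF2 phosphorylation, the translation repressor Eif4ebp1 (1.24) and the mTORC1 inhibitor Ddit4 (0.82).

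Among enzymes that make amino acids and their carbon units, 11 of 14 rose and none fell (median 1.33). Asns, asparagine synthetase, stood at 79.2, 38.5 and 59.6 FPKM at 10 µM and 226, 233 and 242 FPKM at 50 µM (2.02 ± 0.23 (limma adjusted p = 4.14e-06)). The order of the libraries matched that of Trib3, with replicate 2 lowest at 10 µM and no overlap between the doses. Serine synthesis genes rose at each step: Phgdh by 1.69, Psat1 by 1.15 and Psph by 1.30. The mitochondrial folate enzymes Shmt2 (1.59), Mthfd2 (1.61) and Mthfd1l (1.36) rose. Of the cytosolic ones, Shmt1 was at 0.89 and Mthfd1 at -0.0047 (adjusted p = 0.978). Pycr1, the last enzyme of proline synthesis, stood at 21.6, 12.1 and 16.1 FPKM at 10 µM and 61.9, 61.3 and 65.7 FPKM at 50 µM (1.90 ± 0.20 (limma adjusted p = 2.73e-06)), and Cth, which makes cysteine from cystathionine, changed by 2.06 ± 0.23 (limma adjusted p = 3.99e-06).

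Amino acid transporters rose in 10 of 14 cases (median 0.93). Slc3a2, the heavy chain shared by several exchangers, stood at 136, 86.8 and 122 FPKM at 10 µM and 379.6, 411 and 411 FPKM at 50 µM (1.82 ± 0.14 (limma adjusted p = 1.34e-07)). Its partners Slc7a5, which carries large neutral amino acids, and Slc7a11, which exchanges cystine for glutamate, changed by 1.80 ± 0.23 (limma adjusted p = 1.26e-05) and 1.47 ± 0.15 (limma adjusted p = 1.25e-06). The glycine carrier Slc6a9 (2.04, locus shared with another entry), the glutamine carrier Slc38a3 (2.20) and the cationic carriers Slc7a3 (1.92) and Slc7a1 (0.96) rose too. The glutamine carriers Slc1a5 (0.11, adjusted p = 0.705) and Slc38a2 (-0.17, adjusted p = 0.138) did not pass the test.

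Of the cytosolic aminoacyl-tRNA synthetases, which charge tRNAs with amino acids, 17 of 20 rose (median 1.02), led by Wars (1.72 ± 0.12 (limma adjusted p = 8.22e-08)) and Sars (1.51 ± 0.11 (limma adjusted p = 9.56e-08)). Iars, the isoleucine enzyme, stood at 51.4, 31.9 and 41.2 FPKM at 10 µM and 85.6, 88.2 and 85.5 FPKM at 50 µM (1.07 ± 0.16 (limma adjusted p = 5.46e-05)). Its 50 µM libraries lay within a narrow band above the 10 µM libraries. Hars, Qars and Farsa were at 0.15, 0.14 and 0.16 and did not pass. Of the mitochondrial synthetases, 4 of 15 rose (median 0.12), a share near the background of 21.3%.

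Stretches before the start of 4 of these genes are shown because these 4 rose and hold the same short element, which most members of each list lack. RefSeq promoters (GRCr8) of 250 bases before to 50 after the start were searched on both strands for TGATGNAA, the composite element bound by ATF4 with C/EBP proteins. It was found for 4 of 15 stress response regulators, 2 of 12 amino acid synthesis genes, 3 of 11 transporters and 7 of 17 cytosolic synthetases. The share was 1.96% of 8519 tested genes. These counts are of genes with a match in any of their promoters, since some genes have more than 1. A match is a description of these letters, not a shown binding site. The stretches run from base -180 to base -1 before the start, 5′ to 3′ on the gene's strand, with the match in capitals, which is TTNCATCA where it lies on the other strand. They lie at chr3:161275534-161275713 on the minus strand (Trib3), chr3:126795951-126796130 on the plus strand (Chac1), chr10:106420813-106420992 on the minus strand (Pycr1) and chr17:15193653-15193832 on the minus strand (Iars).
Trib3: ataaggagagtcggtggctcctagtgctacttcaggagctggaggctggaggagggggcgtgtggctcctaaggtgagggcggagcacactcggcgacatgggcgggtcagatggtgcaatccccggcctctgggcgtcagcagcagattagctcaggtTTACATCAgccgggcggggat
Chac1: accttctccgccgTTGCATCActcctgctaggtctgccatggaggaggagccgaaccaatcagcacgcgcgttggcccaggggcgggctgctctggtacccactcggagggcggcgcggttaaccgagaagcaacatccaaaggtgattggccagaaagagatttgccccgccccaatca
Pycr1: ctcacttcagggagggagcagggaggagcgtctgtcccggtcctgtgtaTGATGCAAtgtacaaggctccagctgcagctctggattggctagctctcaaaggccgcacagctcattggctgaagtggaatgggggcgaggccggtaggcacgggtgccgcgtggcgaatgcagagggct
Iars: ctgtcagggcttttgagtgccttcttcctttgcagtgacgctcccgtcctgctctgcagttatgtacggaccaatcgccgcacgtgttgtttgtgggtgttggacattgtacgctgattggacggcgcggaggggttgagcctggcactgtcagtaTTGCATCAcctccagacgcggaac

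The first base of the match lies at -21 in Trib3, -167 in Chac1, -131 in Pycr1 and -24 in Iars, counted from the start. These are the genes whose changes between the doses were 2.84, 1.94, 1.90 and 1.07, and they were picked among genes that rose. Got1 and Slc38a1 hold a match too and changed by 0.24 and 0.41. A link between the element and the change was not tested.

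Other branches of the stress response moved less as groups. Of the endoplasmic reticulum chaperones and folding enzymes, 6 of 21 rose and 3 fell (median 0.062). Together these calls are a share near the 41.2% called over all genes (21.3% higher and 19.9% lower). After quantile normalization 1 member fell. The sensors Atf6 (1.29 ± 0.10 (limma adjusted p = 2e-07)) and Ern1 (1.09), the chaperone Hspa5 (0.72 ± 0.10 (limma adjusted p = 5.05e-05)), known as BiP, and its cofactor Dnajb9 (1.52 ± 0.15 (limma adjusted p = 1e-06)) rose. Hsp90b1, an abundant chaperone of the same compartment, was at -0.083 (adjusted p = 0.477), Xbp1 at -0.049 (adjusted p = 0.796), and the disulfide isomerase Pdia4 fell (-0.49 ± 0.11 (limma adjusted p = 0.00137)).

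Of the mitochondrial protein quality genes 6 of 12 rose (median 0.28). Lonp1, the matrix protease, stood at 89.2, 78.5 and 77.2 FPKM at 10 µM and 244, 268 and 268 FPKM at 50 µM (1.66 ± 0.084 (limma adjusted p = 1.14e-08)), without overlap between the doses. Hspa9, the matrix HSP70, changed by 0.95 ± 0.091 (limma adjusted p = 1e-06), while Hspd1 was at 0.31 (adjusted p = 0.0504). Of the cytosolic heat shock list 5 of 19 rose and 2 fell (median -0.040), no larger a share than the 41.2% called over all genes. Without 10 µM replicate 3 there were 3 rises, and with the replicate block 4 members fell. The muscle heat shock gene Hspb3 had the largest fall of that list, -1.35 ± 0.16 (limma adjusted p = 5.5e-06).

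Genes of mitosis fell nearly without exception: 30 of 31 members were lower at 50 µM, with a median change of -1.58. Genes of DNA replication did the same, 30 of 31, with a smaller median of -0.78. Neonatal cardiomyocytes are leaving the cell cycle in the days after birth, and AraC is used in such cultures to remove dividing cells, so these transcripts can come from myocytes or from other cells that still cycle. Which cells they came from was not tested. The members that missed the test were Cenpa, a centromeric histone (-0.34, adjusted p = 0.258, 0.0189 with the replicate block), and Rfc4, a clamp loader subunit (-0.00034, adjusted p = 0.998).

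Cdc20, an activator of the anaphase-promoting complex (rn5, chr5:141050191-141054395), stood at 60.5, 72.2 and 60.2 FPKM at 10 µM and 13.7, 13.5 and 14.3 FPKM at 50 µM. It was 4.64-fold lower by the group means (-2.13 ± 0.18 (limma adjusted p = 4.15e-07)), and the 50 µM libraries differed from one another by little. Cdk1, the mitotic kinase, stood at 113, 128 and 109 FPKM at 10 µM and 40.3, 40.8 and 34.5 FPKM at 50 µM (-1.57 ± 0.13 (limma adjusted p = 2.91e-07)). Top2a, the topoisomerase that untangles chromosomes, stood at 65.9, 66.0 and 64.8 FPKM at 10 µM and 19.8, 16.5 and 16.7 FPKM at 50 µM (-1.84 ± 0.14 (limma adjusted p = 1.57e-07)), with a narrow spread at each dose. The cyclin Ccnb1 (-1.83), the kinases Plk1 (-1.93) and Aurkb (-1.50), the proliferation marker Mki67 (-1.65) and the cytokinesis kinesins Kif23 (-2.05) and Kif20a (-2.20, locus shared) fell. So did Foxm1 (-1.31), a transcription factor of mitotic genes.

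Mcm6, a subunit of the replicative helicase, stood at 15.8, 23.0 and 25.1 FPKM at 10 µM and 8.44, 7.15 and 6.15 FPKM at 50 µM (-1.42 ± 0.16 (limma adjusted p = 4.9e-06)). Each 50 µM library lay below each 10 µM library. Other helicase subunits fell to different extents, from -1.39 for Mcm5 to -0.71 for Mcm2. Rrm2, the regulated subunit of ribonucleotide reductase (-1.72 ± 0.18 (limma adjusted p = 2.34e-06)), and Tk1, thymidine kinase (-1.64 ± 0.12 (limma adjusted p = 1.34e-07)), had the largest falls, and Pcna, the sliding clamp, a smaller one (-0.55 ± 0.14 (limma adjusted p = 0.00425)). Among regulators of G1, 9 of 20 fell and 3 rose (median -0.25). E2f1 (-1.05), Ccne2 (-1.08) and Ccnd1 (-0.69), which drive entry into S phase, fell, whereas Ccnd2 (0.70) and Cdkn1a (0.38), the inhibitor p21, rose.

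Promoters of the cell cycle genes are shown for their known elements. The E2F strings searched were TTTGGCGC, TTTCGCGC, TTTCCCGC and TTTGCCGC, and the cell cycle homology region was searched as TTTGAA and TTCGAA, on both strands of the same windows. Genes were again counted by a match in any of their promoters. E2F strings were in 13 of 27 replication genes and 1 of 24 mitosis genes, against 4.45% of tested genes. The homology strings were in 18 of 24 mitosis genes and 4 of 27 replication genes, against 13.6%. CCAAT, searched separately, was in 18 of 24 and 17 of 27, against 38.6%. In the stretches below (GRCr8, bases -180 to -1, on the gene's strand), capitals mark E2F strings in Mcm6, where 2 matches overlap, and homology strings in the others. They lie at chr13:42404353-42404532 on the minus strand (Mcm6), chr5:137255800-137255979 on the minus strand (Cdc20), chr8:71320585-71320764 on the minus strand (Kif23) and chr10:84473094-84473273 on the minus strand (Top2a).
Mcm6: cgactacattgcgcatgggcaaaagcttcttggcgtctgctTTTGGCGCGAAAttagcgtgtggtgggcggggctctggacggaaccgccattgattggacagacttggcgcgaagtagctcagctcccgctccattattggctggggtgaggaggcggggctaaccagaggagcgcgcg
Cdc20: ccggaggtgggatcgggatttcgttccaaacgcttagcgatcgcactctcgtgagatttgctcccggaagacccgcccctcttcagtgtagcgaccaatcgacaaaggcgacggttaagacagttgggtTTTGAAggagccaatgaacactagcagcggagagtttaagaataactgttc
Kif23: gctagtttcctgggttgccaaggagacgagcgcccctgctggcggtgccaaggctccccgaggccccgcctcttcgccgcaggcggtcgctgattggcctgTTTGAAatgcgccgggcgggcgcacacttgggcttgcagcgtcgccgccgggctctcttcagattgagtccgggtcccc
Top2a: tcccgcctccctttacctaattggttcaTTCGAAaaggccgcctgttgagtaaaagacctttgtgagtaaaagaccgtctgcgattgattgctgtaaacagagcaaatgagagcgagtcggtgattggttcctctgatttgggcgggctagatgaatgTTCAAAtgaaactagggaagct

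The matches start at -139 and -135 in Mcm6, -51 in Cdc20, -79 in Kif23, and -152 and -22 in Top2a. The genes of the mitosis list that hold such a string and those that do not were not compared for the size of their fall.

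Contractile and hypertrophic genes fell in part. Of the fetal and hypertrophic list, 7 of 14 fell and none rose (median -0.81). The thick filament list had 8 of 10 falls (median -0.72), the thin filament list 5 of 10 (median -0.53, 8 with the replicate block) and the Z-disc list 10 of 17 (median -0.53). The background share of falls was 19.9%.

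Myh7, the slow beta-myosin heavy chain that marks the fetal and the overloaded heart (rn5, chr15:37521020-37542688), had the largest fall of all genes named. It stood at 1039, 1319 and 1833 FPKM at 10 µM and 141, 43.1 and 312 FPKM at 50 µM (-3.44 ± 0.50 (limma adjusted p = 4.73e-05)). Replicate 2 was lowest at 50 µM and replicate 3 highest at both doses, and the doses did not overlap. With PE alone it was at 2955 ± 152 FPKM and in Vehicle at 980.3 ± 94.8 FPKM (mean ± SD, n = 3). Its reads may have been split with its near-identical paralog Myh6, the alpha-myosin, which stood at 1997, 1708 and 782 FPKM at 10 µM and 926, 1081 and 889 FPKM at 50 µM (-0.53 ± 0.69 (limma adjusted p = 0.573)).

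Acta1, skeletal alpha-actin, a classic marker of hypertrophy (rn5, chr19:67389898-67392911), stood at 6075, 5009 and 5195 FPKM at 10 µM and 1534, 1627 and 1309 FPKM at 50 µM (-1.86 ± 0.18 (limma adjusted p = 8.63e-07)). Every 50 µM library was below every 10 µM library. The level at 50 µM was still above Vehicle, 181 ± 33.8 FPKM, and the level at 10 µM was above PE alone, 3078 ± 287 FPKM. Acta2, smooth muscle actin, fell (-1.32 ± 0.18 (limma adjusted p = 2.8e-05)), as did the intercalated disc protein Xirp2 (-1.11 ± 0.26 (limma adjusted p = 0.00292)) and the LIM protein Fhl1 (-0.72 ± 0.14 (limma adjusted p = 0.00069)).

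The natriuretic peptide genes, the usual readouts of PE in these cells, did not pass the test between the doses. Nppa stood at 39004, 35176 and 36719 FPKM at 10 µM and 29706, 31764 and 26219 FPKM at 50 µM (-0.34 ± 0.45 (limma adjusted p = 0.579)). Nppb stood at 4942, 4674 and 5038 FPKM at 10 µM and 3451, 3929 and 3027 FPKM at 50 µM (-0.50 ± 0.33 (limma adjusted p = 0.236)). All 50 µM libraries were lower than all 10 µM libraries for both genes, and Nppb passed when only the 2 compared groups were fitted (adjusted p = 0.0322). The SE of both genes draws on all 6 groups and on the trend over genes, not on these libraries alone. Ankrd1, a stretch-responsive sarcomere protein, was at -0.015 (adjusted p = 0.956), and Rcan1, a target of calcineurin signalling, at 0.27 (adjusted p = 0.149, 0.0255 with the replicate block and 0.0433 without 50 µM replicate 3). Corin, the protease that activates the atrial peptide's precursor, did change: it stood at 12.5, 14.1 and 17.9 FPKM at 10 µM and 0.903, 0.486 and 1.69 FPKM at 50 µM (-3.00 ± 0.24 (limma adjusted p = 1.73e-07)). It was low in all 3 libraries at 50 µM, whereas its Vehicle level was 14.2 ± 3.93 FPKM.

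In the thick filament, the M-band proteins Myom2 (-1.66 ± 0.27 (limma adjusted p = 0.000134)) and Myom1 (-1.27 ± 0.12 (limma adjusted p = 1.02e-06)), the myosin-binding protein Mybpc3 (-0.94 ± 0.11 (limma adjusted p = 4.86e-06)), the light chain kinase Mylk3 (-0.74) and the muscle methyltransferase Smyd1 (-0.71) fell. Myl2 was at -0.65 ± 0.23 (limma adjusted p = 0.0315), which missed the test with no filter, in the compared groups only, and without 10 µM replicates 2 or 3 or 50 µM replicates 1 or 3 (adjusted p up to 0.11 without 1 library). Quantile normalization gives the most abundant gene 1 value in every library, so it holds no test of Myl2. In the thin filament, Nebl, nebulette (-1.14 ± 0.22 (limma adjusted p = 0.000592)), and Tmod1, which caps actin ends (-0.59, locus shared), fell. The troponins Tnnt2 (-0.21, adjusted p = 0.276), Tnni3 (-0.30, adjusted p = 0.094) and Tnnc1 (-0.24, adjusted p = 0.15) did not pass. With the replicate block Tnni3 and Tnnc1 passed (adjusted p = 0.0337 and 0.0346), and Tnni3 also passed after quantile normalization (0.0134) and without 50 µM replicate 2 (0.0384).

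Z-disc genes fell to different extents. Synpo2l, an actin-associated Z-disc protein, changed by -2.24 ± 0.20 (limma adjusted p = 6.06e-07) and its relative Synpo2 by -1.63 ± 0.15 (limma adjusted p = 7.52e-07). Actn2, the sarcomeric alpha-actinin, stood at 1499, 1696 and 1612 FPKM at 10 µM and 719.6, 755 and 731 FPKM at 50 µM (-1.12 ± 0.10 (limma adjusted p = 7.45e-07)), a tight and separate pair of groups. The LIM proteins Csrp3 (-1.17 ± 0.20 (limma adjusted p = 0.000175)) and Fhl2 (-1.17 ± 0.14 (limma adjusted p = 7.83e-06)) fell by similar amounts. Desmin (Des, -0.21, adjusted p = 0.316), filamin C (Flnc, 0.13, adjusted p = 0.576) and Cryab (-0.0060, adjusted p = 0.974) did not pass, while Synm, synemin, an intermediate filament partner of desmin, stood at 66.6, 75.3 and 82.5 FPKM at 10 µM and 11.2, 10.4 and 9.78 FPKM at 50 µM (-2.72 ± 0.17 (limma adjusted p = 4.4e-08)). Its 50 µM libraries lay together near the Vehicle level of 6.77 ± 0.852 FPKM, below the 24.8 ± 3.01 FPKM of PE alone.

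**Figure D3:**
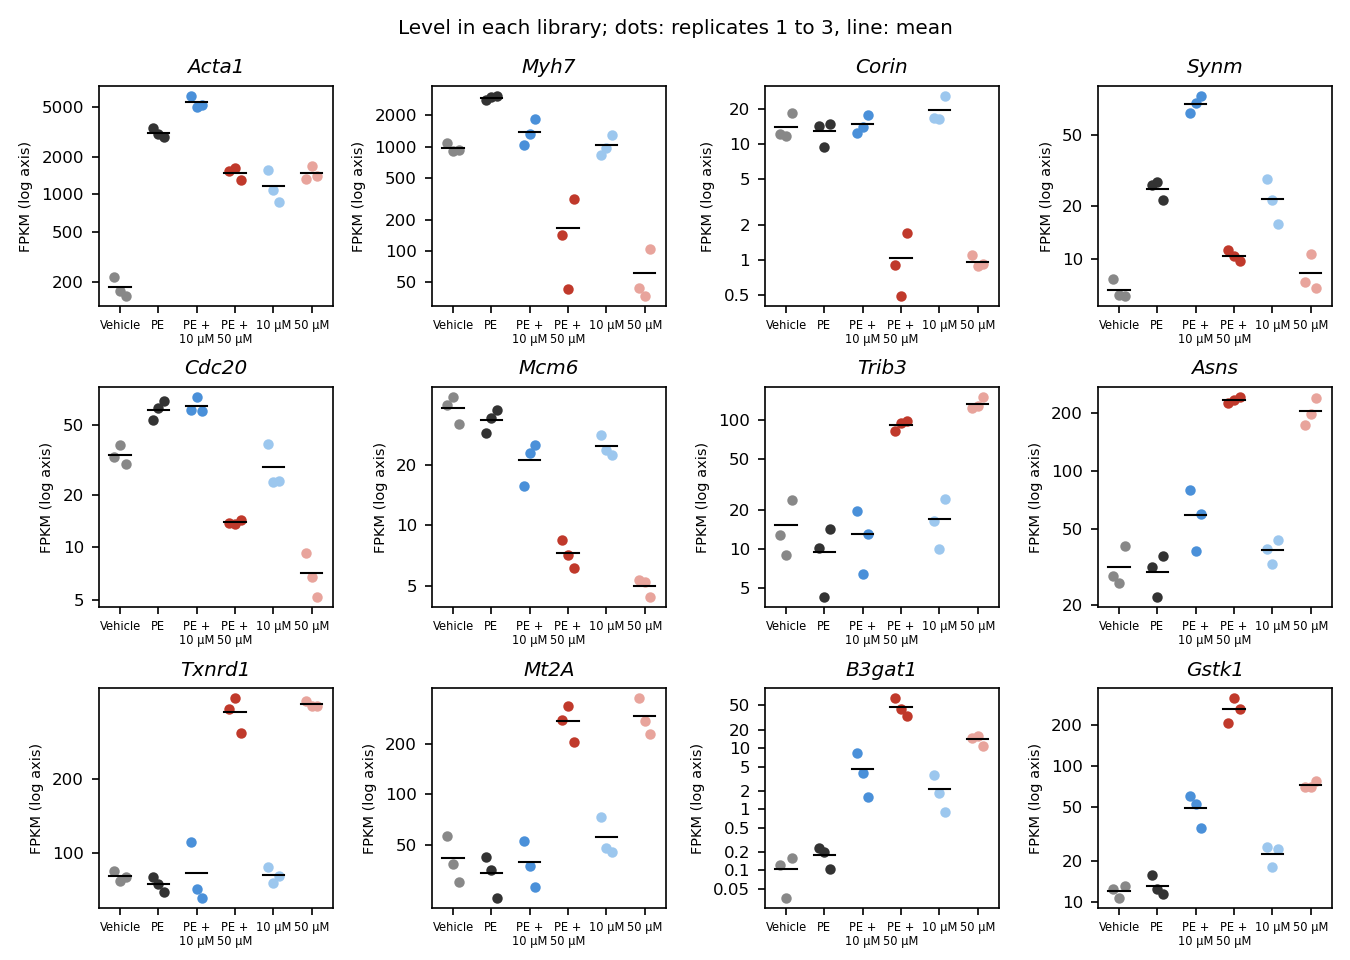
FPKM of 12 genes in every library (log vertical axes), by group (Vehicle, PE, PE with 10 or 50 µM Senexin A, and 10 or 50 µM alone), with dots for replicates 1 to 3 and a line at the mean. Acta1 falls from 6075, 5009 and 5195 FPKM to 1534, 1627 and 1309 FPKM between the doses with PE, while Trib3 goes from 19.7, 6.39 and 13.0 to 82.1, 94.7 and 98.0.

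Calcium handling genes fell in 9 of 16 cases (median -0.56). Store buffers and their anchor fell: Casq1 changed by -2.06 ± 0.36 (limma adjusted p = 0.000276), Hrc by -1.84 ± 0.15 (limma adjusted p = 1.95e-07), and Casq2, cardiac calsequestrin, stood at 1256, 1676 and 1425 FPKM at 10 µM and 530.5, 639 and 501 FPKM at 50 µM (-1.38 ± 0.17 (limma adjusted p = 8.16e-06)). Trdn, triadin, which anchors calsequestrin to the release channel, changed by -1.43 ± 0.12 (limma adjusted p = 3.54e-07), and the channel itself, Ryr2, by -0.57 ± 0.16 (limma adjusted p = 0.00974). The calcium pump Atp2a2 was at -0.23 (adjusted p = 0.354), its inhibitor Pln at -0.0069 (adjusted p = 0.971) and the L-type channel Cacna1c at -0.037 (adjusted p = 0.84). The single rise, Jph1, a junction protein (0.41 ± 0.15 (limma adjusted p = 0.035)), was lost with no filter, in the compared groups only, and without 10 µM replicates 2 or 3 or 50 µM replicates 1 or 3.

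Of the listed ion channels 8 of 17 fell and 1 rose (median -0.35), beside 19.9% lower and 21.3% higher over all genes. Kcne1, a channel subunit that is not on the list, also rose and is given below. The pacemaker channel Hcn4 (-1.24 ± 0.20 (limma adjusted p = 0.000148)) and the potassium channels Kcnh2 (-1.05 ± 0.14 (limma adjusted p = 2.78e-05)) and Kcnj2 (-0.91 ± 0.20 (limma adjusted p = 0.00173)) fell. The rise within the list was Kcnj3, of the acetylcholine-gated current (1.24 ± 0.37 (limma adjusted p = 0.0131)), and without 10 µM replicate 3 it was 0.81 (adjusted p = 0.0818). With the replicate block, and in the compared groups only, 2 members rose. Of the intercalated disc list 5 of 9 fell and 2 rose. The connexins went in opposite directions: Gja5 fell (-1.71 ± 0.27 (limma adjusted p = 9.62e-05)) and Gja1, the main ventricular connexin, rose (0.56 ± 0.10 (limma adjusted p = 0.000222)). The other rise, Dsc2, was lost without 10 µM replicate 2 and without 50 µM replicate 3 (adjusted p up to 0.0809).

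Cardiac transcription factors fell in 6 of 15 cases (median -0.19), with none higher. Irx4, a ventricular homeobox factor, fell most (-1.36 ± 0.20 (limma adjusted p = 5.55e-05)). Zfpm2, a GATA4 cofactor (-0.68 ± 0.078 (limma adjusted p = 5.52e-06)), Gata6 (-0.40) and Srf (-0.31) fell, while Gata4 (-0.19, adjusted p = 0.0923), Nkx2-5 (-0.15, adjusted p = 0.24) and Mef2a (-0.089, adjusted p = 0.534) did not pass. Myocd, a coactivator of Srf, was at -0.65 ± 0.20 (limma adjusted p = 0.0146), and missed the test without 10 µM replicate 2 (0.0662).

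Atrial genes varied with the replicate number as well as with the dose. Myl7, the atrial regulatory light chain, stood at 961, 652 and 128 FPKM at 10 µM and 357, 187 and 32.9 FPKM at 50 µM (-1.72 ± 1.23 (limma adjusted p = 0.285), 3.5e-08 with the replicate block). Sln, the atrial calcium pump regulator sarcolipin, stood at 241, 119 and 20.9 FPKM at 10 µM and 74.6, 35.8 and 3.03 FPKM at 50 µM (-1.94 ± 1.49 (limma adjusted p = 0.318), 3.21e-05 with the block). Myl4, the atrial essential light chain, stood at 1106, 492 and 786 FPKM at 10 µM and 398, 166 and 123 FPKM at 50 µM (-1.90 ± 0.77 (limma adjusted p = 0.0575), 0.000197 with the block). Each of them was lower at 50 µM than at 10 µM within every replicate number, and replicate 3 was the lowest of its dose for Myl7 and Sln. The groups overlapped for Myl7 and Sln and not for Myl4, which also passed in the compared groups only (0.0114) and without 50 µM replicate 1 (0.0373).

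Of the targets of NRF2, the transcription factor of the oxidative stress response, 10 of 20 rose and 1 fell (median 0.35). Txnrd1, thioredoxin reductase, stood at 110.0, 71.2 and 65.3 FPKM at 10 µM and 384, 426 and 308 FPKM at 50 µM (2.19 ± 0.15 (limma adjusted p = 5.95e-08)), without overlap, though its locus is shared with another entry. Srxn1, sulfiredoxin (2.04 ± 0.17 (limma adjusted p = 3.58e-07)), and Hmox1, heme oxygenase (1.78 ± 0.28 (limma adjusted p = 8.94e-05)), rose by similar amounts. The pentose phosphate enzymes Taldo1 (1.01) and Tkt (0.60) and glutathione reductase Gsr (0.60) also rose. Nqo1, a standard NRF2 target, was at 0.056 (adjusted p = 0.868), and Gclm, of glutathione synthesis, at 0.18 (adjusted p = 0.121, 0.0493 with the replicate block). Gpx1 was the member that fell (-0.50 ± 0.16 (limma adjusted p = 0.0223)), with 2 falls in the list with the replicate block and without 50 µM replicate 2. It missed the test when no filter was used and without 10 µM replicates 1 or 2 or 50 µM replicates 1 or 3 (adjusted p up to 0.103).

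Glutathione transferases had 5 rises and 4 falls of 17 (median 0.16), near the background of 21.3 and 19.9%. Gstk1, the kappa-class enzyme of mitochondria and peroxisomes, stood at 60.0, 52.7 and 35.1 FPKM at 10 µM and 207, 317 and 261 FPKM at 50 µM (2.40 ± 0.19 (limma adjusted p = 1.57e-07)). The level with PE alone was 13.2 ± 2.22 FPKM. Mgst3 (-1.53 ± 0.16 (limma adjusted p = 1.95e-06)), Gstm2 (-1.42 ± 0.17 (limma adjusted p = 9.25e-06)) and Gstm7 (-0.85) fell. The metallothioneins, small metal-binding proteins, rose: Mt2A stood at 52.6, 37.2 and 27.9 FPKM at 10 µM and 277, 339 and 207 FPKM at 50 µM (2.79 ± 0.29 (limma adjusted p = 1.84e-06)) and Mt1a changed by 2.01 ± 0.32 (limma adjusted p = 0.000132). No 10 µM library reached the 50 µM range for Mt2A.

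The protein synthesis machinery was modestly higher. Of the ribosome biogenesis factors 22 of 27 rose (median 0.42), among them Bop1 (0.97, locus shared), Wdr12 (0.85), the nucleolar proteins Ncl (0.68 ± 0.062 (limma adjusted p = 6.84e-07)) and Npm1 (0.68 ± 0.076 (limma adjusted p = 4.13e-06)), and Polr1b of RNA polymerase I (0.68). Of the ribosomal proteins 30 of 36 rose (median 0.37), and 17 rose when only the compared groups were fitted. Ribosomal protein genes have many processed pseudogenes, so their reads may be shared, and Rps6 and Rpl8 were listed near the floor in all libraries. Myc, a transcription factor of ribosome production, rose (1.63 ± 0.30 (limma adjusted p = 0.000433)).

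In glycolysis, which breaks down glucose, 10 of 24 fell and 3 rose (median -0.10). Some muscle isoforms fell. Phosphoglycerate mutase Pgam2 stood at 272, 172 and 201 FPKM at 10 µM and 58.3, 46.7 and 66.9 FPKM at 50 µM (-1.88 ± 0.29 (limma adjusted p = 8.53e-05)). Enolase Eno3 changed by -1.71 ± 0.18 (limma adjusted p = 1.79e-06) and phosphofructokinase Pfkm by -0.98 ± 0.10 (limma adjusted p = 2.57e-06). The widely expressed isoforms Pgam1 (-0.12, adjusted p = 0.432), Eno1 (-0.073, adjusted p = 0.619) and Pfkp (0.14, adjusted p = 0.596) did not pass. Hexokinases did not keep to that split, with Hk2 up (1.34 ± 0.23 (limma adjusted p = 0.000244)) and Hk1 down (-0.53 ± 0.076 (limma adjusted p = 4.14e-05)). After quantile normalization 5 members of this list rose, and Gapdh (-0.21, adjusted p = 0.15) passed with the replicate block (0.0346).

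The pyruvate and citric acid cycle list fell in 15 of 26 cases (median -0.33), led by the pyruvate dehydrogenase kinases Pdk3 (-0.96 ± 0.10 (limma adjusted p = 1.37e-06)) and Pdk4 (-0.85 ± 0.13 (limma adjusted p = 7.84e-05)), with the enzymes Dlat (-0.56), Fh (-0.54), Idh2 (-0.51) and Pdha1 (-0.48) also lower. The count was 9 without 10 µM replicate 2 and 9 without 50 µM replicate 1. Of 44 oxidative phosphorylation genes 7 fell (median -0.11), among them Cox8b (-0.78), Atp5a1 (-0.54) and Sdha (-0.52), below the background of 19.9%. That count was 17 with the replicate block, 12 after quantile normalization with 4 rises, and 3, 4 and 13 without 10 µM replicate 2, 50 µM replicate 1 and 50 µM replicate 2.

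Fatty acid genes had 7 rises and 9 falls of 33 (median -0.18; 11 and 15 with the replicate block), a mix near that of all genes, 21.3% higher and 19.9% lower. Acot2, a mitochondrial acyl-CoA thioesterase, stood at 40.4, 30.3 and 40.5 FPKM at 10 µM and 253, 215 and 159 FPKM at 50 µM (2.45 ± 0.17 (limma adjusted p = 8.52e-08)). The fatty acid carrier Cd36 (1.11 ± 0.13 (limma adjusted p = 6.58e-06), locus shared) and Hadhb of the trifunctional protein (0.91 ± 0.10 (limma adjusted p = 2.58e-06)) rose, and Hadh (-1.0 ± 0.12 (limma adjusted p = 8.77e-06)), Decr1 (-0.90 ± 0.16 (limma adjusted p = 0.00037)) and the uncoupling protein Ucp2 (-0.93 ± 0.083 (limma adjusted p = 5.64e-07)) fell. Sterol and lipid synthesis had 4 falls of 31 (median -0.090), among them Fasn, fatty acid synthase (-0.64 ± 0.14 (limma adjusted p = 0.00149)). In the compared groups only, 9 fell and 2 rose. With the replicate block 7 fell, and 2 without 10 µM replicate 3.

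Matrix genes fell in 11 of 31 cases with no rise (median -0.42). With the replicate block 19 fell and 2 rose, and without 10 µM replicate 3 7 fell. Tnc, tenascin C of remodelling tissue, changed by -1.77 ± 0.20 (limma adjusted p = 3.92e-06), Col8a1 by -1.43 ± 0.26 (limma adjusted p = 0.000367), the protease inhibitor Timp3 by -1.37 ± 0.13 (limma adjusted p = 1.11e-06) (locus shared) and Sparc by -0.91 ± 0.11 (limma adjusted p = 9.38e-06). The fibrillar collagens Col1a1 (-0.66 ± 0.29 (limma adjusted p = 0.0766)) and Col3a1 (-0.57 ± 0.35 (limma adjusted p = 0.207)) passed with the replicate block (0.000688 and 0.000287), and Col1a1 also without 10 µM replicate 2 or 50 µM replicate 3. TGF-beta and BMP genes fell in 9 of 22 cases (median -0.35), led by Tgfbi (-1.47 ± 0.16 (limma adjusted p = 3.46e-06)) and Ctgf (-0.98 ± 0.21 (limma adjusted p = 0.00165)). That count was 5 with no filter, and 4, 5 and 3 without 10 µM replicates 1 and 3 and 50 µM replicate 2.

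Markers of the other cell types are given beside these, since matrix and smooth muscle genes can come from non-myocytes. None of 12 fibroblast markers passed (median -0.15), and their part in the fall of matrix genes was not tested. With the replicate block 3 fell and 1 rose. In the compared groups only 1 fell, and 2, 1 and 1 fell without 10 µM replicate 2 and 50 µM replicates 1 and 3. Thy1, a fibroblast surface protein, was at -0.72 ± 0.31 (limma adjusted p = 0.0734), and passed with the block (3.16e-05), in the compared groups only (0.0419) and without 50 µM replicate 1 (0.0294). Of the smooth muscle and pericyte markers 4 of 11 fell (median -0.58), with summed levels of 4116 to 5458 FPKM at 10 µM and 2541 to 3093 FPKM at 50 µM. These were Cnn1, calponin (-1.96 ± 0.27 (limma adjusted p = 3.3e-05)), Acta2, and Rgs5 and Tagln. After quantile normalization the calls of Rgs5 and Tagln were lost. Rgs5 was also lost without 10 µM replicates 1 or 2 or 50 µM replicates 2 or 3 (adjusted p up to 0.158), and Tagln without 10 µM replicates 1 or 3 or 50 µM replicate 2 (up to 0.0724). Myh11, the smooth muscle myosin, was at -0.68 (adjusted p = 0.135) and passed with the block (0.000722). The count was 9 with the block, and 2 after quantile normalization, without 10 µM replicate 1 and without 50 µM replicate 2.

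No macrophage marker passed of 8, and 1 fell with the replicate block and without 50 µM replicate 2. Of 6 endothelial markers 1 fell (2 with the block and with no filter, and none with a filter of 5 FPKM), the VEGF receptor Flt1 (-0.76 ± 0.17 (limma adjusted p = 0.00227)), while Cdh5, Kdr, Vwf and Cldn5 did not pass the filter on low values. In the epicardial list Krt18, a keratin of simple epithelia, was the 1 member called (2.26 ± 0.37 (limma adjusted p = 0.000141); 2 rose without 50 µM replicate 2 and 1 fell without 50 µM replicate 1), while its partner Krt8 was at 0.52 (adjusted p = 0.322) and the mesothelial genes Wt1 and Msln at -0.041 and 0.20, neither called. Interferon and NF-kB genes fell in 5 of 22 cases (median -0.34; 8 with the replicate block), a share near the background. Vcam1, an adhesion molecule, led (-1.85 ± 0.39 (limma adjusted p = 0.00137)), followed by the NF-kB inhibitor Nfkbia (-0.60 ± 0.11 (limma adjusted p = 0.000292)).

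Genes of the p53 response rose in 10 of 21 cases and fell in 2 (median 0.19), beside 21.3% higher and 19.9% lower over all genes. The largest rises were Sesn2, Gadd45a (1.85 ± 0.12 (limma adjusted p = 4.4e-08)) and Pmaip1, which encodes the pro-apoptotic NOXA (1.76 ± 0.37 (limma adjusted p = 0.00115)). These are also known targets of ATF4, and which factor moved them was not tested. Among further p53 targets, Cdkn1a changed by 0.38 ± 0.10 (limma adjusted p = 0.00705), Mdm2 by 0.53 ± 0.10 (limma adjusted p = 0.00036) and Bax by 0.69 ± 0.074 (limma adjusted p = 2.6e-06), while Ccng1 was at 0.10 (adjusted p = 0.51). In the apoptosis list 5 of 20 rose, a share near the 21.3% of all genes, and 7 fell, beside 19.9% (median -0.069). The falls numbered 4 with no filter and without 10 µM replicates 2 or 3 or 50 µM replicate 1, and 3 without 50 µM replicate 2. Autophagy and atrophy genes rose in 8 of 19 (median 0.15), led by the cargo receptor Sqstm1 (1.36 ± 0.14 (limma adjusted p = 2.12e-06)) and Trim54 (0.80 ± 0.12 (limma adjusted p = 6.63e-05)), whereas the muscle ubiquitin ligases Trim63 (-0.010, adjusted p = 0.931) and Fbxo32 (0.21, adjusted p = 0.248) did not pass.

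Immediate early genes, which respond within minutes to growth signals, had 5 rises and 7 falls of 27 (median -0.15), shares near those of all genes, 21.3 and 19.9%. Besides Myc and Atf3, Fosl2 rose (0.74 ± 0.15 (limma adjusted p = 0.000812)). The phosphatases Dusp1 (-1.25 ± 0.14 (limma adjusted p = 4.16e-06)) and Dusp5 (-1.14 ± 0.27 (limma adjusted p = 0.0027)), which switch off MAP kinases, fell, while Fos was at 0.13 (adjusted p = 0.759). Egr1 was at -0.78 ± 0.56 (limma adjusted p = 0.288) and passed with the replicate block (0.0243).

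The transcripts of the inhibitor's own target module did not pass the test between the doses. Cdk8 stood at 15.8, 16.4 and 14.6 FPKM at 10 µM and 17.2, 17.7 and 13.0 FPKM at 50 µM (0.026 ± 0.11 (limma adjusted p = 0.879)), with overlapping groups. Cdk19 was at -0.082 ± 0.17 (limma adjusted p = 0.732), Med12 at -0.020 ± 0.081 (limma adjusted p = 0.868), Med13 at 0.048 ± 0.11 (limma adjusted p = 0.765) and Ccnc, cyclin C, at 0.18 ± 0.091 (limma adjusted p = 0.115), so none of 6 members was called. Without 50 µM replicate 3, Ccnc passed (0.0165). These are transcript levels and do not measure kinase activity. Of 25 other Mediator subunits 4 rose and 1 fell (median 0.053), among them Med20 (0.53 ± 0.070 (limma adjusted p = 1.82e-05)), Med9 (0.60 ± 0.12 (limma adjusted p = 0.000762)) and Med16 (-0.37 ± 0.080 (limma adjusted p = 0.00131), locus shared). The rises numbered 2 with no filter and without 10 µM replicate 1 or 50 µM replicate 2, and the falls 3 without 50 µM replicate 1 and 2 with median-ratio scaling.

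The largest rises of all were outside most of these lists. B3gat1, a glucuronyltransferase that builds the HNK-1 carbohydrate (rn5, chr8:27797385-27823230), stood at 8.35, 3.85 and 1.56 FPKM at 10 µM and 66.2, 43.8 and 33.1 FPKM at 50 µM (3.26 ± 0.37 (limma adjusted p = 5.15e-06)). It was 0.105 ± 0.0632 FPKM in Vehicle and 0.177 ± 0.0645 FPKM with PE alone, below both doses. Casp4, an inflammatory caspase, stood at 13.0, 9.20 and 17.3 FPKM at 10 µM and 113, 133 and 120.1 FPKM at 50 µM (3.16 ± 0.24 (limma adjusted p = 1.34e-07)). Ifi27l2b, of an interferon-inducible family, stood at 62.0, 38.5 and 51.2 FPKM at 10 µM and 365, 485 and 489 FPKM at 50 µM (3.13 ± 0.31 (limma adjusted p = 1.15e-06)). In both, the 10 µM libraries lay near the level of PE alone, 12.7 and 42.8 FPKM.

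Further large rises were Cdh17, a cadherin of liver and intestine (2.75 ± 0.18 (limma adjusted p = 5.11e-08)), Pla2g7, which degrades platelet-activating factor (2.55 ± 0.34 (limma adjusted p = 2.06e-05)), Kcne1, an accessory subunit of the slow potassium current (2.54 ± 0.42 (limma adjusted p = 0.000175)), and Soat2, a cholesterol-esterifying enzyme (2.43 ± 0.17 (limma adjusted p = 6.59e-08)). Soat2 stood at 0.912, 0.320 and 0.518 FPKM at 10 µM, a low level. Further large falls were Cited1, a transcriptional co-regulator that stood at 439, 773 and 683 FPKM at 10 µM and 78.2, 129 and 109 FPKM at 50 µM (-2.56 ± 0.24 (limma adjusted p = 7.52e-07)), and Aqp1, a water channel that stood at 149.6, 141 and 169 FPKM at 10 µM and 31.5, 25.5 and 26.2 FPKM at 50 µM (-2.42 ± 0.14 (limma adjusted p = 2.34e-08)). The 10 µM level of Cited1 was above those of Vehicle (206 FPKM) and PE alone (246 FPKM), and the 50 µM level below both. Asb4, a ubiquitin ligase adaptor (-2.49 ± 0.19 (limma adjusted p = 1.18e-07)), Ptgfr, the prostaglandin F receptor (-2.31 ± 0.19 (limma adjusted p = 2.49e-07)), and Myh3, embryonic myosin (-2.31 ± 0.43 (limma adjusted p = 0.000434)), completed the largest falls with Tceal7, of a transcription elongation factor-like family (-2.65 ± 0.30 (limma adjusted p = 4.31e-06)), and Sdpr.

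The same pair of doses without PE shares no library with this comparison. Both contrasts do use the same estimate of spread, drawn from all 18 libraries, so their calls are not independent. Without PE 5276 genes were called (50.4%), 2663 higher (25.4%) and 2613 lower (24.9%) at 50 µM. In both settings 3294 genes were called, 38 of them in opposite directions. The 3256 called in the same direction were 75.4% of the calls with PE and 61.7% of those without. Across genes, which are not independent replicates, the changes correlated with Pearson's r = 0.81 and Spearman's rho = 0.78. List medians without PE were -1.59 for mitosis, -1.0 for replication, 1.73 for stress response regulators, 1.10 for cytosolic synthetases and 0.53 for NRF2 targets.

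**Figure D4:**
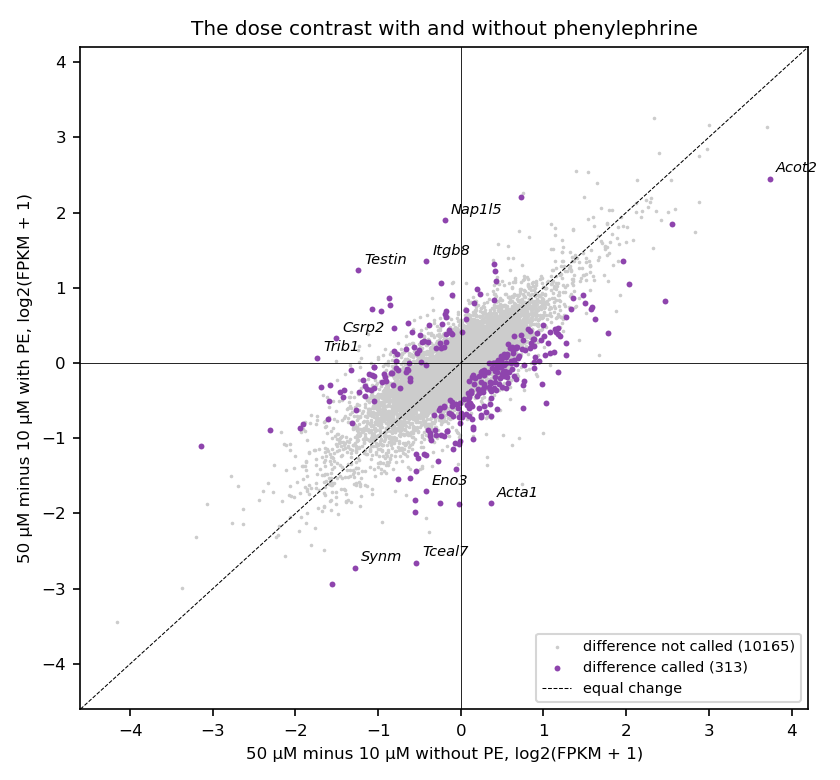
Change between 50 and 10 µM with PE (vertical axis) against the same change without PE (horizontal axis), both in log2(FPKM + 1), with 1 point per gene tested and genes whose difference limma called in colour. Most genes lie along the diagonal, while Acta1 sits at -1.86 with PE and 0.36 without, and Nap1l5 at 1.90 and -0.19.

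The difference between the dose contrasts was tested as an interaction. It was called for 313 genes (2.99%): 95 had a higher dose change with PE than without (0.907%) and 218 a lower one (2.08%). In 141 of them the fitted changes had opposite signs, and in 35 of those both contrasts were themselves called. With the replicate block the count was 1147. Without 1 library it was 135, 156, 133 and 140 on leaving out, in turn, replicates 1 and 2 of 10 µM and replicates 1 and 3 of 50 µM with PE. It was 150, 121 and 143 on leaving out replicates 2 and 3 of 10 µM and replicate 3 of 50 µM without PE. The count was 294 without replicate 3 of 10 µM and 460 without replicate 2 of 50 µM with PE. It was 406, 437 and 227 on leaving out replicate 1 of 10 µM and replicates 1 and 2 of 50 µM without PE. Of the 1026 genes called with PE and not without, 76 had a called difference.

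Acta1 fell between the doses with PE and not without it. Without PE it stood at 1549, 1088 and 870.0 FPKM at 10 µM and 1333, 1683 and 1396 FPKM at 50 µM, a change of 0.36 (adjusted p = 0.0985), and the difference was -2.23 ± 0.25 (limma adjusted p = 0.00048). The libraries of the doses overlapped there. The glycolytic muscle enzymes Eno3 and Pgam2 had the same form: Eno3 changed by -0.42 (adjusted p = 0.055) without PE (difference -1.28 ± 0.25 (limma adjusted p = 0.0129)), and Pgam2 by -0.018 (adjusted p = 0.964) (difference -1.86 ± 0.41 (limma adjusted p = 0.0255)). The Pgam2 difference missed the test with no filter, without replicate 1 of either dose with PE, without replicates 2 or 3 of 10 µM alone and without replicate 3 of 50 µM alone (adjusted p up to 0.0756). Synm fell in both settings, by -2.72 with PE and -1.28 without (difference -1.44 ± 0.25 (limma adjusted p = 0.00782)). Tceal7 was at -0.54 (adjusted p = 0.144) without PE (difference -2.11 ± 0.42 (limma adjusted p = 0.0155)), and Ckb, brain-type creatine kinase, at -0.55 (adjusted p = 0.0193) against -1.81 with PE (difference -1.26 ± 0.26 (limma adjusted p = 0.0171)). The Ckb difference missed the test with no filter, without 10 µM replicate 1 with PE and without replicate 3 of 10 µM alone (adjusted p up to 0.0535).

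In the other direction, Nap1l5, a nucleosome assembly protein relative, stood at 10.2, 12.4 and 11.3 FPKM at 10 µM and 45.2, 48.4 and 40.6 FPKM at 50 µM with PE (1.90 ± 0.12 (limma adjusted p = 4.65e-08)) and at 4.23, 4.57 and 4.72 FPKM at 10 µM and 3.29, 4.06 and 4.12 FPKM at 50 µM without (-0.19 (adjusted p = 0.199)). The difference was 2.09 ± 0.17 (limma adjusted p = 2.05e-05), though its locus is shared with another entry. Csrp2, a LIM protein, fell without PE (-1.51 (adjusted p = 2.01e-05)) and was at 0.33 ± 0.21 (limma adjusted p = 0.211) with it (difference 1.84 ± 0.29 (limma adjusted p = 0.00576)). Trib1, a pseudokinase, fell without PE (-1.74 (adjusted p = 3.8e-07)) and was at 0.071 ± 0.16 (limma adjusted p = 0.751) with it, where both doses were low (4.16 and 4.52 FPKM against 12 in Vehicle). Its difference was 1.81 ± 0.22 (limma adjusted p = 0.00116). Itgb8, an integrin, rose with PE (1.36 ± 0.18 (limma adjusted p = 2.68e-05)) and was at -0.42 (adjusted p = 0.0714) without (difference 1.77 ± 0.26 (limma adjusted p = 0.00576)).

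Acot2 rose in both settings and more without PE, by 2.45 with and 3.74 without (difference -1.29 ± 0.24 (limma adjusted p = 0.0119)). As groups, the metabolic lists had higher medians without PE than with it: oxidative phosphorylation 0.24 against -0.11, glycolysis 0.31 against -0.10, and fatty acid oxidation 0.17 against -0.18. Matrix genes had a lower median without PE, -0.83 against -0.42, and so did fibroblast markers, -0.70 against -0.15, and TGF-beta genes, -0.80 against -0.35. These differences between list medians were not tested. Gene by gene, a difference was called for 6 of 24 glycolysis genes and 7 of 33 fatty acid genes, all lower with PE. It was called for 0 of 44 oxidative phosphorylation genes and for none in the matrix, fibroblast and TGF-beta lists. The share over all genes was 2.99%.

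**Figure D5:**
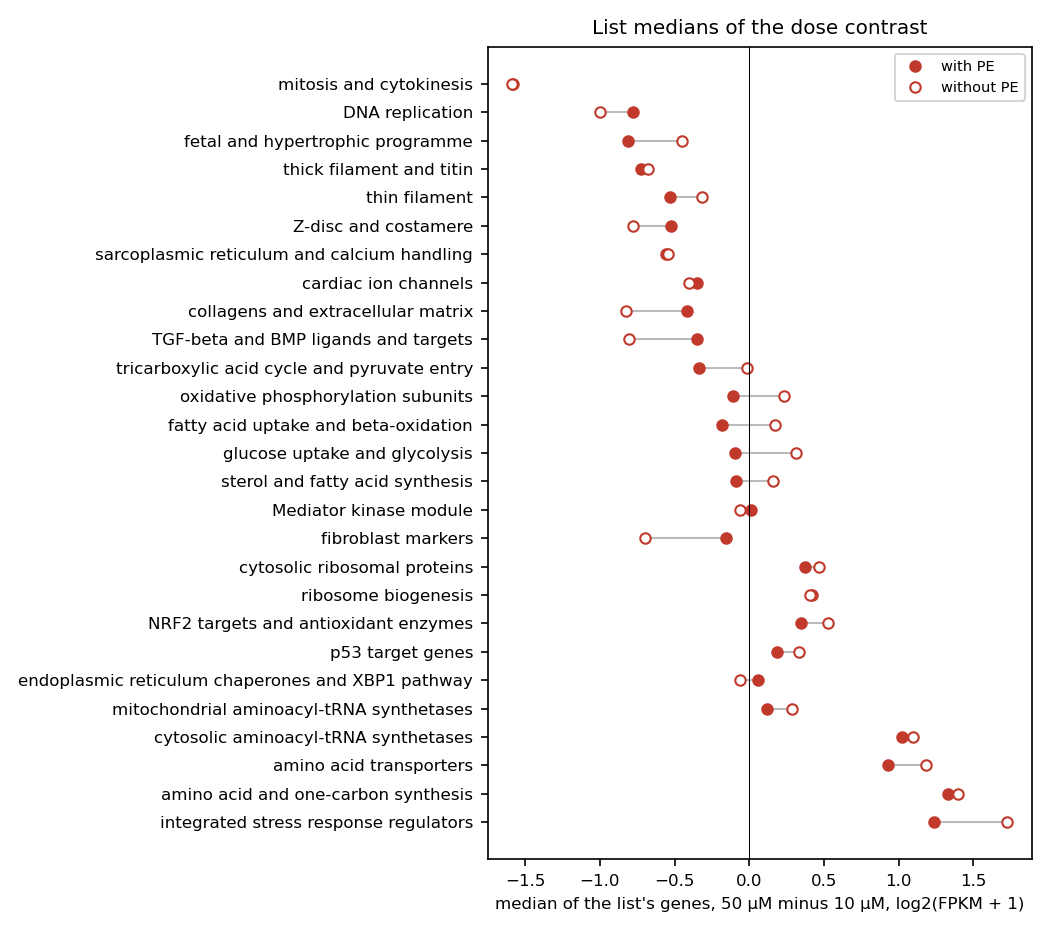
Median change of 27 gene lists between 50 and 10 µM (horizontal axis, log2(FPKM + 1)), with PE and without PE as separate markers. The stress response and cell cycle lists keep to their side of 0 in both settings, while oxidative phosphorylation is at -0.11 with PE and 0.24 without. No member of the oxidative phosphorylation list had a called difference.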

How the data were processed

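Polyadenylated RNA of 18 libraries was measured by RNA-seq, and the deposited table holds 1 FPKM column per library, each mapped to its sample by its label. Bowtie2, Cufflinks and the rn5 build made these FPKM values, per the submitters' processing notes of the deposited series, and per the labels the libraries came from a TruSeq kit. Versions, annotation, filters, read depth and strand use are not given in the sources used here. No column was left unused. The table's smallest value is a floor of 0.01 FPKM, and 1000 of the tested entries share their locus with another entry, which makes their values uncertain.

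Values were taken as log2(FPKM + 1), a scale that understates the change of low genes, and a gene was kept if 3 or more libraries reached 1 FPKM. All 6 groups were fitted in 1 model with limma 3.58.1 (variance trend, 12 residual degrees of freedom) in R 4.3.3. Each contrast, and the difference between the dose contrasts, was adjusted by Benjamini-Hochberg over all 10478 genes, and genes were called at an adjusted p under 0.05. Plots used matplotlib 3.10.9 and numpy 2.4.6 under Python 3.11.15, and promoter searches pandas 2.3.3. The fit was checked on simulated data. Promoters came from RefSeq, GRCr8. Coordinates given with rn5 come from the table.

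The comparison and the 48 gene lists were chosen with earlier results of these data known. The genes named are the 12 largest rises and falls among called genes with a group mean of at least 5 FPKM and doses that do not overlap, up to 6 called members per list, the 8 largest differences between the dose contrasts, and a fixed panel. List members that did not pass or that fill a role, and the genes of caveolae, receptors, peptide processing, creatine kinases, metallothioneins, stanniocalcins and cholinesterases, were added after their values were seen.

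Replicate numbers paired the libraries. Only pairs of libraries with Senexin A from different groups were summarized. Their deviations from the group means correlated by 0.213 to 0.583 in 18 pairs with the same number, 0.391 to 0.570 in the 3 pairs of the compared groups, and -0.462 to -0.0217 in 36 pairs with different numbers. Deviations cancel out within a group, so the negative values are not separate evidence of pairing. The labels do not give the source of the pairing. Replicates of a group correlated across genes by 0.986 to 0.992. Alternatives were quantile normalization, median-ratio scaling, a pseudocount of 0.1, a filter of 5 FPKM in place of 1 or none at all, the compared groups only, a replicate block and leaving out each library.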

Additional observations from a re-analysis of the deposited data

Results flagged for a closer look

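Each result here is a named gene whose change between 50 and 10 µM Senexin A differed between cultures with and without PE, by limma's test of the difference itself, adjusted over all genes. Values are the change with PE minus the change without PE on the log2 scale. Of 21 such genes, 11 passed in every alternative run: Acta1, Tceal7, Synm, Acot2, Eno3, Ednra, Adrb1, Itgb8, Trib1, Csrp2 and Nap1l5.

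Of these 11 differences 5 were negative. The largest was that of the skeletal actin Acta1, -2.23 (-1.86 with and 0.36 without PE, adjusted p = 0.00048). Tceal7 followed with -2.11 (-2.65 with and -0.54 without PE, adjusted p = 0.0155), a gene of the elongation factor-like family whose fall without PE did not pass. The others were synemin (Synm by -1.44 (-2.72 with and -1.28 without PE, adjusted p = 0.00782)), the enolase Eno3 by -1.28 (-1.71 with and -0.42 without PE, adjusted p = 0.0129), and the thioesterase Acot2 by -1.29 (2.45 with and 3.74 without PE, adjusted p = 0.0119), which rose in both settings.

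The other 6 were positive. The endothelin receptor gene Ednra fell in both settings and less with PE, a difference of 1.09 (-0.86 with and -1.95 without PE, adjusted p = 0.00627). The beta1-adrenergic receptor gene Adrb1 rose with PE and fell without it, a difference of 1.16 (0.53 with and -0.63 without PE, adjusted p = 0.00871). The integrin Itgb8 by 1.77 (1.36 with and -0.42 without PE, adjusted p = 0.00576), the pseudokinase Trib1 by 1.81 (0.071 with and -1.74 without PE, adjusted p = 0.00116), the LIM protein Csrp2 by 1.84 (0.33 with and -1.51 without PE, adjusted p = 0.00576) and the nucleosome assembly relative Nap1l5 by 2.09 (1.90 with and -0.19 without PE, adjusted p = 2.05e-05) followed. Nap1l5 shares its locus with another entry.

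The remaining genes passed in the reported fit and missed the test in at least 1 alternative. The glycolytic enzyme Pgam2 differed by -1.86 (-1.88 with and -0.018 without PE, adjusted p = 0.0255) and missed in 6 of 19 alternatives. The creatine kinases Ckb by -1.26 (-1.81 with and -0.55 without PE, adjusted p = 0.0171) and Ckmt1b by -1.35 (-1.40 with and -0.053 without PE, adjusted p = 0.0488) missed in 3 of 19 and 13 of 18. Bex1 by -1.36 (-0.60 with and 0.76 without PE, adjusted p = 0.0297) missed in 6, and the transferase Mgst3 by -0.91 (-1.53 with and -0.62 without PE, adjusted p = 0.0413) in 12. The survival factor Bcl2l1 by -0.72 (0.46 with and 1.18 without PE, adjusted p = 0.0175) missed in 1, in the compared groups only, and the uncoupling protein Ucp2 by -0.56 (-0.93 with and -0.37 without PE, adjusted p = 0.0208) in 2. The stress gene Gadd45a by -0.7 (1.85 with and 2.56 without PE, adjusted p = 0.0343) missed in 10, the alpha1B-adrenergic receptor gene Adra1b by 0.78 (-0.15 with and -0.93 without PE, adjusted p = 0.0374) in 10 and Testin by 2.47 (1.23 with and -1.24 without PE, adjusted p = 0.0364) in 10. Their adjusted p over the alternatives reached 0.131 (Ckmt1b).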

How the results depend on the processing

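The count of genes called between the doses with PE stayed within 1.5 times of 4320 in all alternatives: 3600 to 3999 without 1 library, 3706 in the compared groups only and 5333 with the replicate block. Without PE it ran from 4456 to 6205. The difference between the dose contrasts was not stable in number. From 313 (95 higher, 218 lower), it went to 202 (58 higher, 144 lower) with no filter, 104 (30 higher, 74 lower) in the compared groups only and 1147 (438 higher, 709 lower) with the replicate block, which uses the pairing. Without 1 library it ran over 121 to 460 (32 to 143 higher, 89 to 321 lower). The cause was not tested.

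Of 329 named genes, 258 kept their direction and their side of the threshold in the dose contrast with PE under every alternative. Genes with changes near 0, none of them called, turned sign: without 1 library Trib1 ran over -0.060 to 0.26, Ankrd1 -0.11 to 0.053, Cdk8 -0.050 to 0.16, Cdk19 -0.22 to 0.045, Med12 -0.062 to 0.051, Med13 -0.037 to 0.17, Klf2 -0.12 to 0.42, Murc -0.032 to 0.20 and Npr1 -0.29 to 0.048. Under quantile normalization Ankrd1 was at 0.091, Cdk19 at 0.0067 and Med12 at 0.048. Calls of named genes changed by the replicate block, and most list counts that moved by more than 1.5 times, are given beside their results, apart from some counts that moved by 1 member. The number of reads is unknown, and 3 libraries a group limit what small changes can be called.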

Other observations

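Genes of caveolae, membrane pits rich in cholesterol, fell between the doses with PE with exceptions. The muscle caveolin Cav3 stood at 414, 478 and 391 FPKM at 10 µM and 172, 214 and 174 FPKM at 50 µM (-1.19 ± 0.14 (limma adjusted p = 4.84e-06)). The coat proteins Ptrf (cavin-1, -1.10 ± 0.093 (limma adjusted p = 3.58e-07)), Prkcdbp (cavin-3, -0.99 ± 0.10 (limma adjusted p = 1.05e-06)) and Sdpr (cavin-2, -2.29 ± 0.24 (limma adjusted p = 1.95e-06), locus shared) fell too, each without overlap between the doses. Cav1, the widely expressed caveolin, was at -0.49 ± 0.24 (limma adjusted p = 0.115), and passed with the replicate block (0.00109). Murc, the muscle cavin-4, was at 0.10 ± 0.31 (limma adjusted p = 0.826). Without PE, Cav3, Ptrf, Prkcdbp and Sdpr were at -0.90, -1.02, -0.79 and -2.21, all called.

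Receptors of hypertrophic agonists did not move alike. Ednra, for endothelin, stood at 29.0, 25.7 and 31.3 FPKM at 10 µM and 15.1, 12.2 and 19.4 FPKM at 50 µM (-0.86 ± 0.13 (limma adjusted p = 4.98e-05)) and Ptgfr, for prostaglandin F, at 86.4, 107 and 92.9 FPKM at 10 µM and 18.4, 13.6 and 24.5 FPKM at 50 µM (-2.31 ± 0.19 (limma adjusted p = 2.49e-07)). Agtr1a, for angiotensin II, stood at 4.10, 4.30 and 3.98 FPKM at 10 µM and 2.45, 3.28 and 2.33 FPKM at 50 µM (-0.48 ± 0.17 (limma adjusted p = 0.0273)). It missed the test with no filter, after quantile normalization, and without any 1 of the 10 µM libraries or 50 µM replicates 1 or 3 (adjusted p up to 0.102). The PE receptors Adra1a (-0.20 ± 0.25 (limma adjusted p = 0.553)) and Adra1b (-0.15 ± 0.13 (limma adjusted p = 0.41)) did not pass, and Adrb1, the beta1-adrenergic receptor, rose (0.53 ± 0.15 (limma adjusted p = 0.00831)). Both cholinesterases fell, Ache by -1.97 ± 0.14 (limma adjusted p = 9.44e-08) and Bche by -1.60 ± 0.15 (limma adjusted p = 8.15e-07). The stanniocalcins, secreted glycoproteins, went apart: Stc1 fell from 13.8, 29.7 and 32.2 FPKM to 5.74, 5.78 and 10.0 FPKM (-1.63 ± 0.33 (limma adjusted p = 0.000887)) and Stc2 rose from 7.31, 4.6 and 7.67 to 23.1, 23.8 and 30.5 FPKM (1.85 ± 0.27 (limma adjusted p = 5.38e-05)). Myl9, a smooth muscle light chain, fell (-1.37 ± 0.20 (limma adjusted p = 4.78e-05)) with a change of -0.35 (adjusted p = 0.152) without PE, and Furin, a protease that processes natriuretic peptide precursors, rose (0.43 ± 0.12 (limma adjusted p = 0.00871)), a call lost without 50 µM replicate 1 (0.0545).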
